A study of Homo sapiens with 52 samples.

Results

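The non-targeting controls of MDA-MB-231 were delivered in different ways, and they were compared here with each other: 3 samples with a non-targeting shRNA (shNT) against 3 samples with a non-targeting siRNA (siNT), which made 6 of the 52 samples of the series. They were taken by their labels, and no measured value entered the choice. MDA-MB-231 is an established human triple negative breast cancer line, grown here with NRP1 left intact in both groups. The siNT cells had been reverse transfected with 20 nM of a commercial negative control siRNA in lipid complexes, and their RNA was taken after 72 hrs. The shNT cells had been transduced with a pLKO.1 lentivirus packaged in HEK293T cells and selected with puromycin at 1 µg/mL, and their RNA was taken 48 hrs after seeding. The study used each group as the baseline for NRP1 knockdown by the same route, so the comparison asks how far apart these baselines lay. Route, drug selection, guide sequence and time of harvest all differed between the groups and cannot be told apart. The shRNA replicates were consecutive passages of transduced cells, so that the p-values measure the spread between samples and not between separate transductions.

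An siRNA enters the cytoplasm as a finished duplex and is diluted as cells divide, whereas an shRNA is transcribed from an integrated provirus and cut by Dicer before it is loaded into the same Argonaute complex. Some of the pathways that cells use to answer foreign nucleic acid, lipid or drug are read in mRNA by their target genes. NF-kB is a family of transcription factors held in the cytoplasm by inhibitors such as NFKBIA, and it switches on cytokine and chemokine genes once released. ATF4 is a transcription factor translated when general translation is throttled by amino acid or endoplasmic reticulum stress, and it drives amino acid synthesis and transport genes.

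The 6 samples held 37007132 to 63173667 expected counts, with 37007132 to 49432014 in the siNT and 52586418 to 63173667 in the shNT samples. No pair of replicates agreed within sampling noise (chi-square per degree of freedom 12.8 to 41.1 over genes). Of the markers set for a claudin-low line, VIM (2670 to 3321 counts per 1000000 counts, CPM), ZEB1, SNAI1 and ITGA6 were all present. CDH1 (1.75 CPM or less), ESR1 and PGR were low, but CLDN4 (145 to 204 CPM), CLDN7 (16.0 to 44.7 CPM) and ERBB2 (88.8 to 124 CPM) were readily measured. The 5 markers of the HEK293T packaging cells reached at most 0.0211 CPM. In siNT replicate 3, 144 genes typical of HS578T stood at a median of 0.461% of their HS578T level and 100 genes typical of SUM159PT at 0.208% of their SUM159PT level. The other samples had at most 0.109%. Where leaving out this sample ended the call of a named gene, this is said beside it.

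NRP1, the co-receptor for VEGF and class 3 semaphorins that both guides were meant to spare (chr10:33177492-33336262, - strand, GRCh38), had 73.1, 81.1 and 97.0 CPM with siNT and 209, 193 and 188 CPM with shNT. All shNT values lay above all siNT values (log2 fold change 1.23, SE 0.15, adjusted p = 1.68e-05, edgeR). Over the 6 groups of MDA-MB-231, mean NRP1 expression was highest in shNT and lowest in siNRP1#5. The shNRP1#3 cells held 67.9, 68.6 and 75.7 CPM and the shNRP1#5 cells 83.8, 101 and 100.4 CPM, so the knockdown by shNRP1#5 left NRP1 within or just above the range of siNT cells in which nothing had been knocked down. The shNRP1#3 values reached into that range with 1 replicate.

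Across the transcriptome, 18800 genes were tested and 3865 (20.6%) passed an adjusted p of 0.05 in edgeR's quasi-likelihood test. Of these, 2013 (10.7%) were higher in shNT and 1852 (9.85%) higher in siNT. A change of at least 2-fold was called for 1182 genes (6.29%), of which 722 (3.84%) were higher in shNT and 460 (2.45%) in siNT. The share of calls that were higher in shNT was 52.1% with TMM normalisation, but 62.9% when samples were scaled by library size alone and 77.1% with limma on log2(TPM + 0.5), where the median of all genes stood at 0.135. Changes below are read on the TMM scale, where that median was -0.0053. With 1 sample left out, the calls numbered 2543 without shNT replicate 3 to 3539 without siNT replicate 3. The 12 largest falls by the rule for named genes included cytokines, chemokines and acute phase proteins. The 12 largest rises ranged from surface receptors to a calcium channel subunit, a transporter and an actin-binding protein.

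**Figure D1:**
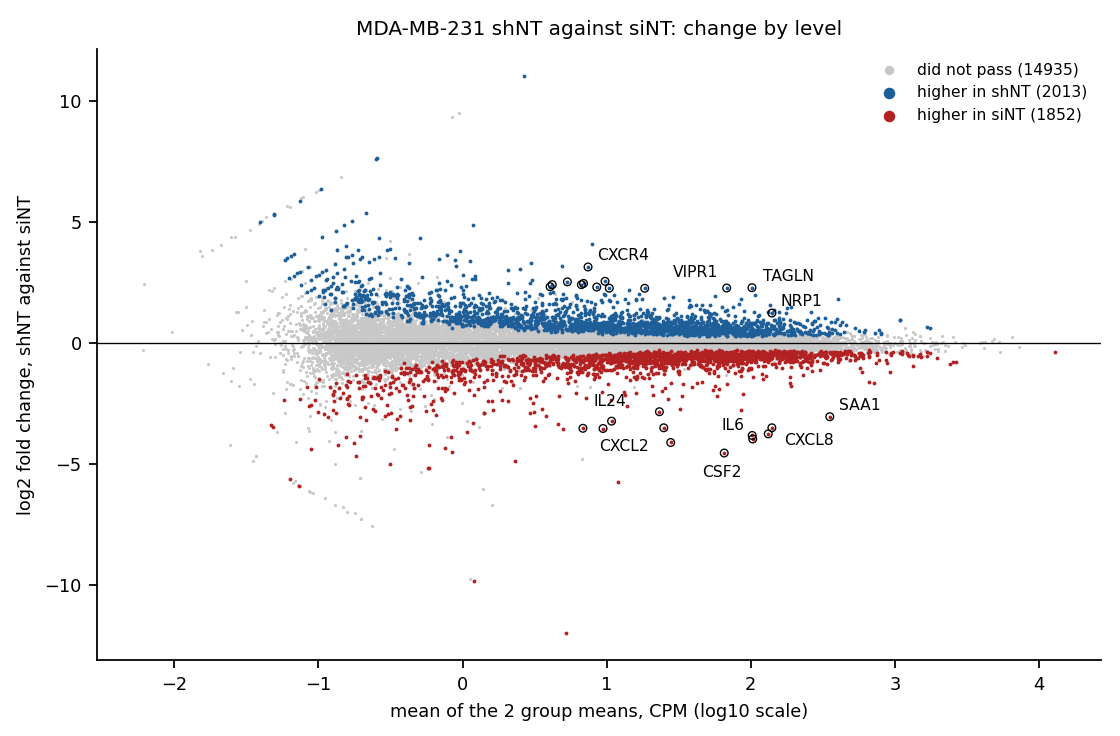
Each point is a gene, with its mean level on the x axis (CPM, log10 scale) and its log2 fold change of shNT against siNT on the y axis, blue where higher in shNT, red where higher in siNT and grey where the test was not passed. The ringed genes are NRP1 and the 12 largest changes each way among well measured genes, and 7 genes at 0 in all 6 samples are not drawn. The ringed cytokines at the bottom fell by 2.84 to 4.55 on the log2 scale and lie farther from 0 than most of the ringed genes at the top.

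NF-kB target and cytokine genes were lower in shNT than in siNT cells. Of 25 genes in that list, 20 fell and 0 rose, against 9.85% and 10.7% of all genes tested. The median log2 fold change was -1.38 against -0.0053 for all genes tested. The values of 22 of the 25 did not overlap between the groups, against 40.7% of all genes tested. IL6, a pleiotropic inflammatory cytokine (chr7:22725884-22732002, + strand), had 208, 163 and 211 CPM with siNT and 17.2, 9.76 and 10.3 CPM with shNT. Its lowest siNT value was thus many times its highest shNT value (log2 fold change -3.97, SE 0.46, adjusted p = 5.66e-05, edgeR). CXCL8, the main chemoattractant for neutrophils (chr4:73740519-73743716, + strand), had 399, 166 and 174 CPM with siNT and 30.1, 11.4 and 13.2 CPM with shNT. The siNT replicates of CXCL8 were uneven, with replicate 1 far above the others, but even the lowest was well above every shNT value (log2 fold change -3.76, SE 0.59, adjusted p = 7.21e-04, edgeR). CSF2, which encodes the growth factor GM-CSF (chr5:132073789-132076170, + strand), had 152, 85.6 and 139 CPM with siNT and 9.50, 2.23 and 4.4 CPM with shNT, a fall to 5.37 ± 3.73 (SD, n = 3) from 126 ± 35.2 CPM and the largest among the 24 genes picked for size (log2 fold change -4.55, SE 0.75, adjusted p = 0.00106, edgeR, and -5.23 without shNT replicate 1). Without siNT replicate 3, again 20 of the 25 fell and the median was -1.38.

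The list included signals, subunits of NF-kB and the pathway's own inhibitors. CSF3, the granulocyte growth factor, held 32.4, 14.8 and 23.9 CPM with siNT and 0.895, 0.204 and 0.227 CPM with shNT (log2 fold change -5.76, SE 0.73, adjusted p = 1.23e-04, and -6.75 without shNT replicate 1). CCL20, which draws CCR6-bearing lymphocytes, fell from low levels (1.98, 1.08 and 1.27 to 0.0365, 0.0556 and 0.106 CPM, log2 fold change -4.34, adjusted p = 5.73e-05). The neutrophil chemokines CXCL2 and CXCL1 moved the same way. For CXCL2 the values were 78.8, 43.9 and 35.1 CPM with siNT and 4.46, 1.91 and 2.76 CPM with shNT (log2 fold change -4.11, SE 0.63, adjusted p = 5.41e-04). For CXCL1 they were 54.9, 33.8 and 33.6 CPM with siNT and 9.28, 2.95 and 4.84 CPM with shNT (log2 fold change -2.84, SE 0.59, adjusted p = 0.00408). CXCL1, CXCL2 and CXCL3 are close copies of each other, so reads may be shared among them. The alarmin IL1A had 65.7, 22.6 and 49.1 CPM with siNT and 4.84, 3.30 and 3.94 CPM with shNT (log2 fold change -3.50, SE 0.52, adjusted p = 3.56e-04), whereas IL1B overlapped between the groups and did not pass the test (-1.28, adjusted p = 0.180). The feedback inhibitor NFKBIA fell by less, from 184, 178 and 205 to 114, 96.4 and 102 CPM (log2 fold change -0.86, adjusted p = 0.00753), as did the nuclear co-factor NFKBIZ (84.7, 45.8 and 51.9 to 28.4, 9.35 and 14.6 CPM, -1.80, adjusted p = 0.0103) and the pathway subunits NFKB2 (-0.98, adjusted p = 0.00106) and RELB (-1.08, adjusted p = 0.00642). The other 4 members that did not pass were PTGS2, TNFAIP3, ICAM1 and CCL5, with log2 fold changes of -0.54, -0.51, -0.44 and 0.29.

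Outside that list, other secreted proteins fell too. The acute phase proteins SAA1 (426, 543 and 923 CPM with siNT and 92.6, 68.1 and 68.3 CPM with shNT, log2 fold change -3.05, SE 0.50, adjusted p = 9.58e-04) and SAA2 (log2 fold change -3.50, SE 0.69, adjusted p = 0.00359, and -2.82 without siNT replicate 3) are near-identical copies, so that the split between them is uncertain. LCN2, an iron-binding protein of the innate defence, had 149.6, 125 and 299 CPM with siNT and 34.9, 3.08 and 2.71 CPM with shNT. Replicate 1 of shNT stood far above the other shNT values but under every siNT value (log2 fold change -3.82, SE 1.01, adjusted p = 0.0175). The change was -6.04 without that sample, and the call was lost for LCN2 without shNT replicate 2 or 3 (adjusted p from 0.0612 to 0.0627) and with only the 2 groups fitted (adjusted p = 0.0902). The cytokine IL24 had 23.7, 14.4 and 20.5 CPM with siNT and 1.32, 3.80 and 1.17 CPM with shNT (log2 fold change -3.23, SE 0.45, adjusted p = 1.99e-04, and -3.98 without shNT replicate 2), and the EGF receptor ligand EREG, named for its low p, 29.6, 21.3 and 20.8 CPM with siNT and 5.46, 3.19 and 3.11 CPM with shNT (log2 fold change -2.61, SE 0.25, adjusted p = 2.25e-06). PDZK1IP1, a small membrane protein, and BHLHA15, a transcription factor of secretory cells, completed the genes chosen by size, with log2 fold changes of -3.53 (adjusted p = 0.00383) and -3.53 (adjusted p = 3.35e-05). The value for PDZK1IP1 was -4.25 without shNT replicate 1 and -2.89 without siNT replicate 3. In bulk RNA, fewer cells expressing a gene and less RNA of it per cell cannot be told apart.

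**Figure D2:**
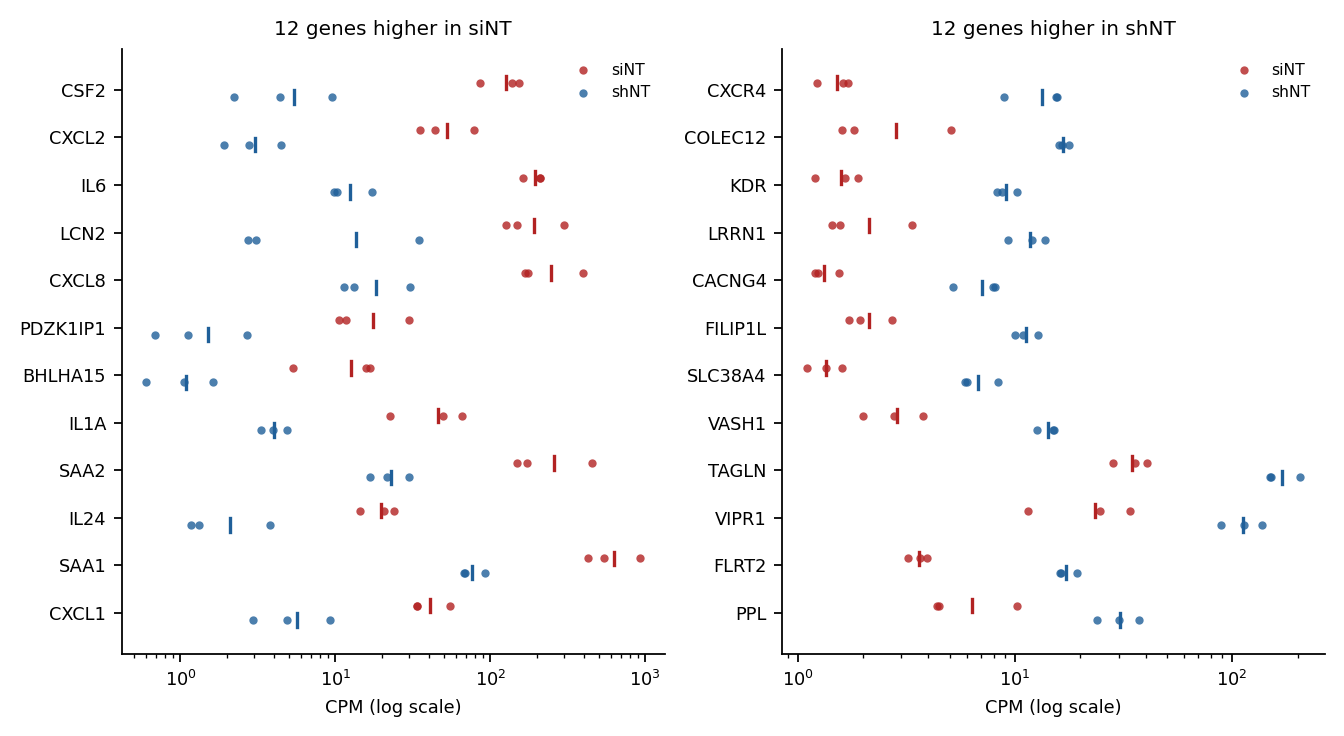
The 12 genes with the largest fall (left) and the largest rise (right) in shNT among well measured genes whose groups did not overlap, with CPM on a log scale on the x axis, a point for each of the 3 siNT (red) and 3 shNT (blue) samples and a vertical bar for each group mean. CSF2, at the top left, runs from 85.6 to 152 CPM with siNT and from 2.23 to 9.50 CPM with shNT, and the gaps between the groups follow from the way the genes were picked.

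The upstream sequences of IL6, CXCL8 and CXCL2, which fell by 2-fold or more, are shown because they hold a pattern that many members of the list share. All are from RefSeq on GRCh38.p14, 5′ to 3′ along the gene, and the capitals mark GGNNTTTCC, an NF-kB-like pattern, which was searched on both strands in the 250 bases before the start.
IL6 (chr7:22727090-22727199, + strand): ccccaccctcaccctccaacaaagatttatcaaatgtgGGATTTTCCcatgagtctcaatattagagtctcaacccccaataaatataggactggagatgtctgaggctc
CXCL8 (chr4:73740459-73740568, + strand): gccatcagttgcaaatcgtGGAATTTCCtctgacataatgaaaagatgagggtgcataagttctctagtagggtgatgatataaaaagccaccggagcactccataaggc
CXCL2 (chr4:74099196-74099305, - strand): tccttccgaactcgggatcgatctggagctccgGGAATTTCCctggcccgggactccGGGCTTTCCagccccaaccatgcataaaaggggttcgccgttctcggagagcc
The match began 72 bases before the start in IL6, 91 in CXCL8, and 77 and 53 in CXCL2. Of the 20 list members with a promoter in the table, 12 held the pattern, among them NFKBIA, NFKBIZ, CXCL1 and ICAM1, against 5.48% of 27305 promoters. It was chosen from 6 patterns after the results were seen, and a match is a stretch of letters and no evidence of binding. CSF2 and IL1A did not hold it, which says only that these letters are not in this window.

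The amino acid and ATF4 response list fell as well. Of 21 members, 15 were lower in shNT and 0 higher (9.85% and 10.7% of all genes tested), with a median log2 fold change of -0.75. With 1 sample left out, 8 (without shNT replicate 1) to 13 were lower, and 11 without siNT replicate 3 (median -0.77). ATF4 itself had 368, 434 and 396 CPM with siNT and 250.1, 301 and 282 CPM with shNT (log2 fold change -0.52, SE 0.14, adjusted p = 0.0124), and DDIT3, a transcription factor that ATF4 induces, 36.5, 32.2 and 23.2 CPM with siNT and 9.43, 15.5 and 14.4 CPM with shNT (log2 fold change -1.22, SE 0.20, adjusted p = 3.45e-04). The largest falls were those of NUPR1, a small stress protein (7.67, 7.21 and 8.14 CPM with siNT and 0.585, 2.54 and 1.83 CPM with shNT, -2.21, adjusted p = 0.0176), CHAC1, which breaks down glutathione (23.3, 24.1 and 18 CPM with siNT and 2.21, 6.38 and 6.10 CPM with shNT, -2.15, adjusted p = 0.00591), and ASNS, the enzyme that makes asparagine. ASNS had 132, 88.4 and 211 CPM with siNT and 14.3, 43.2 and 43.8 CPM with shNT (log2 fold change -2.09, SE 0.56, adjusted p = 0.0176). Both groups were uneven, with siNT replicate 3 the highest and shNT replicate 1 the lowest, but they did not overlap. Enzymes of serine and one-carbon synthesis fell more mildly, with -1.01, adjusted p = 3.47e-04 for PSAT1 and -0.75, adjusted p = 0.00119 for MTHFD2, as did the tRNA ligase AARS1 (-0.81, adjusted p = 0.0127). The amino acid carriers of the list were split, as SLC3A2 fell (-0.64, adjusted p = 0.00876) and SLC7A5 (-0.20, adjusted p = 0.505) and SLC7A11 (-0.35, adjusted p = 0.298) did not pass. Calls were lost for ATF4 without shNT replicate 1 or siNT replicate 2 (adjusted p from 0.0596 to 0.0632), NUPR1 without shNT replicate 1 or 3 (adjusted p from 0.0544 to 0.0615), ASNS without shNT replicate 1 or siNT replicate 3 (adjusted p from 0.0557 to 0.0611) and AARS1 without shNT replicate 1 (adjusted p = 0.0687).

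The promoters of ASNS and CHAC1 are shown because they hold TGATGNAA, a pattern like the ATF4 and C/EBP composite element. It is in capitals below, and lies on the opposite strand in CHAC1.
ASNS (chr7:97872409-97872518, - strand): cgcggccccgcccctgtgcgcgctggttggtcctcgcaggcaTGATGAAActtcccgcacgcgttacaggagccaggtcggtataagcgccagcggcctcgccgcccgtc
CHAC1 (chr15:40953241-40953350, + strand): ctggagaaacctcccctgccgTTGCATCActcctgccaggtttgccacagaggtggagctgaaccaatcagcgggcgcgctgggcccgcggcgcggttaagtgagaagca
The match began 68 bases before the start in ASNS and 209 in CHAC1. Among the 17 ATF4 list members with a promoter in the table, 4 held the pattern (ASNS, CHAC1, ATF3 and AARS1), against 3.19% of all promoters, and 0 of the 20 NF-kB members did. This pattern too was chosen after the results were seen.

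Other stress lists fell in part, where 9.85% of all genes tested were lower and 10.7% higher. The AP-1 and immediate early genes, first targets of growth and stress signals, had 11 of 17 tested members lower and 0 higher, with a median of -0.80. The largest was ATF3 (46.8, 46.0 and 23.6 CPM with siNT and 8.37, 12.2 and 9.04 CPM with shNT, log2 fold change -1.97, SE 0.23, adjusted p = 1.50e-05). ATF3 is also a member of the ATF4 list, so that the lists are not fully separate. FOSB (-1.52, adjusted p = 0.0326, overlapping, and -2.11 without shNT replicate 2) and NR4A1 (13.9, 13.3 and 11.4 CPM with siNT and 3.78, 6.20 and 4.47 CPM with shNT, -1.42, adjusted p = 8.33e-05) followed. FOS, the first of the family, did not pass (-0.57, adjusted p = 0.130), while JUND fell (-1.16, adjusted p = 1.48e-04) and MYC fell (-0.77, adjusted p = 0.00199). NRF2 targets, the genes of the oxidative stress response, had 9 of 17 lower and 0 higher, with a median of -0.50. Among them HMOX1, which breaks down haem, had 106, 102 and 81.1 CPM with siNT and 41.7, 54.4 and 48.6 CPM with shNT (-1.0, adjusted p = 6.94e-04). Both ferritin chains fell (FTH1 -0.87, adjusted p = 0.00161, FTL -0.80, adjusted p = 8.54e-04), but the classical target NQO1 did not pass (0.10, adjusted p = 0.744). Steepest were the near-identical aldo-keto reductases AKR1C2 (-2.49, adjusted p = 0.00922) and AKR1C1 (-2.20, adjusted p = 0.0173). The unfolded protein response had 4 of 15 lower and 1 higher. DNAJB9 (-1.48, adjusted p = 9.18e-04), SDF2L1 (-1.12, adjusted p = 9.88e-04), XBP1 (-0.78, adjusted p = 0.00379) and the chaperone HSPA5 (2192, 1808 and 1298 to 811, 1053 and 908 CPM, -0.93, adjusted p = 3.52e-04) fell. SEL1L rose (0.78, adjusted p = 0.00181), and HSP90B1 did not pass (-0.25, adjusted p = 0.212). Calls were also lost for FOSB without shNT replicate 1 or 3 or siNT replicate 1 or 2 (adjusted p from 0.0714 to 0.178) and AKR1C1 without shNT replicate 1 or 3 or siNT replicate 1 (adjusted p from 0.0570 to 0.0667). With limma on log2(TPM + 0.5), 7 AP-1 genes were lower. In the NF-kB, ATF4, AP-1 and NRF2 lists, 0 members rose by edgeR, DESeq2 or limma. At an unadjusted p under 0.05, which 33.9% of all genes reached, 0 rose either.

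**Figure D3:**
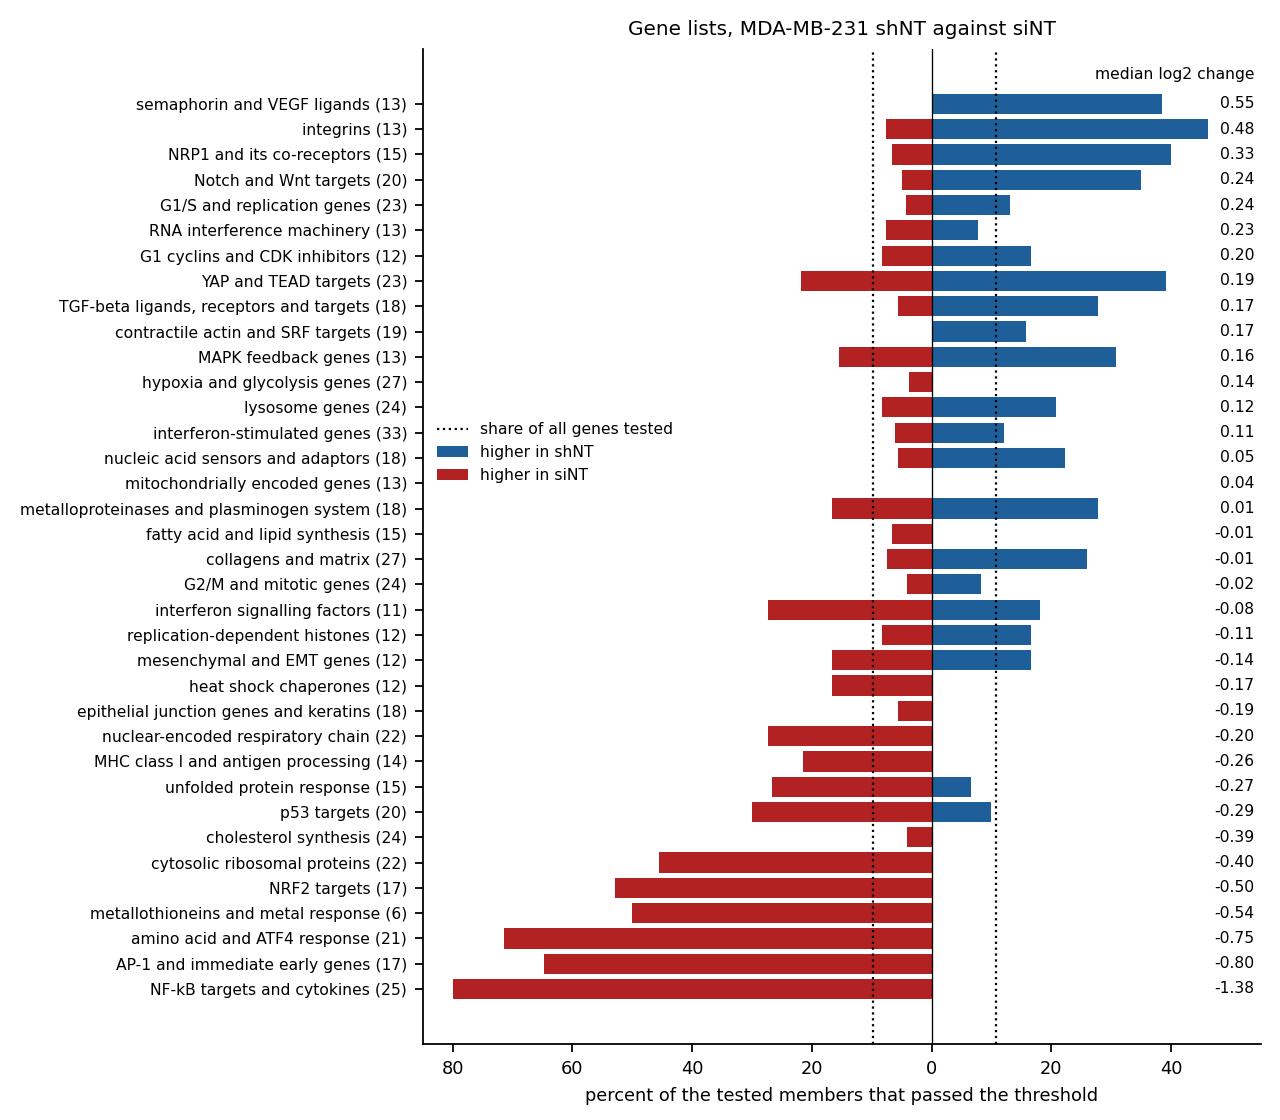
Each row is a gene list with its number of tested members, the bars give the percent of these that were higher in siNT (red, left) or in shNT (blue, right), the numbers at the right give the median log2 fold change, and dotted lines mark the same percents over all genes tested (9.85% and 10.7%). The NF-kB, AP-1, ATF4, metallothionein and metal response, NRF2 and ribosomal lists extend to the left and have no bar on the right. The semaphorin and VEGF ligands have no bar on the left.

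Among the largest rises were those of surface receptors. CXCR4, the receptor for CXCL12 that guides migrating cells (chr2:136114349-136119177, - strand), had 1.62, 1.22 and 1.71 CPM with siNT and 8.93, 15.6 and 15.5 CPM with shNT. The lowest shNT value lay well above the highest siNT value (log2 fold change 3.14, SE 0.32, adjusted p = 4.06e-06, edgeR). KDR, the signalling receptor for VEGF-A and a partner of NRP1 (chr4:55078481-55125595, - strand), had 1.65, 1.20 and 1.90 CPM with siNT and 8.29, 10.2 and 8.77 CPM with shNT, and its replicates were tight in both groups (log2 fold change 2.52, SE 0.18, adjusted p = 1.52e-07). FLRT2, a guidance and adhesion receptor, held 3.66, 3.94 and 3.21 CPM with siNT and 19.3, 16.2 and 16.3 CPM with shNT (log2 fold change 2.26, SE 0.18, adjusted p = 2.27e-07). VIPR1, the receptor for vasoactive intestinal peptide, spanned a wider range, 11.5, 24.7 and 34.0 CPM with siNT and 137, 113 and 88.7 CPM with shNT (log2 fold change 2.27, SE 0.43, adjusted p = 0.00201). TAGLN, an actin-binding protein of contractile cells, rose from 28.2, 40.4 and 35.8 to 206, 150.0 and 152 CPM (log2 fold change 2.28, SE 0.18, adjusted p = 2.69e-07). COLEC12, a scavenger receptor, held 1.59, 1.81 and 5.09 CPM with siNT and 16.4, 17.7 and 15.9 CPM with shNT, where siNT replicate 3 was highest of its group and still under the shNT values (log2 fold change 2.54, SE 0.40, adjusted p = 3.04e-04, and 3.28 without that sample). The other 6 genes picked by size were LRRN1, CACNG4, FILIP1L, SLC38A4, VASH1 and PPL. Their log2 fold changes ran from 2.26 to 2.46.

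NRP1's co-receptors and ligands rose more often than they fell, where 10.7% of all genes tested rose and 9.85% fell. Of 15 co-receptor genes, 6 were higher and 1 lower in shNT (median log2 fold change 0.33). Besides NRP1 and KDR these included NRP2, the other neuropilin (43.2, 40.2 and 46.8 CPM with siNT and 58.2, 95.3 and 89.4 CPM with shNT, 0.90, adjusted p = 0.00646). FLT1, a high-affinity VEGF receptor, rose from low levels (0.385, 0.232 and 0.338 CPM with siNT and 0.932, 0.890 and 0.880 CPM with shNT, 1.50, adjusted p = 0.00277). EGFR rose (0.57, adjusted p = 0.00687), and so did MET, the receptor for hepatocyte growth factor (38.1, 28.1 and 34.0 CPM with siNT and 103, 91.8 and 81.2 CPM with shNT, log2 fold change 1.46, SE 0.17, adjusted p = 1.12e-05). The semaphorin receptor PLXNA2 fell (37.4, 33.6 and 28.9 CPM with siNT and 15.2, 28.3 and 19.8 CPM with shNT, -0.66, adjusted p = 0.0213). Of 13 semaphorin and VEGF ligand genes, 5 were higher and 0 lower (median 0.55). These were SEMA3A (0.87, adjusted p = 0.0233), SEMA3C (0.87, adjusted p = 0.00423), SEMA3D (1.37, adjusted p = 0.00144), PGF, which binds FLT1 (0.90, adjusted p = 0.0226), and PDGFC (0.73, adjusted p = 0.00107). SEMA3B had -0.21 and did not pass (adjusted p = 0.553). Only 3 ligands were higher without siNT replicate 1 or without siNT replicate 2. With 1 sample left out, calls were lost for PLXNA2 without shNT replicate 1 or 3 or siNT replicate 1 or 2 (adjusted p from 0.0582 to 0.115), SEMA3A without shNT replicate 1 or siNT replicate 1 or 2 or 3 (adjusted p from 0.0510 to 0.149) and PGF without shNT replicate 3 or siNT replicate 1 or 2 (adjusted p from 0.0769 to 0.0951). No ligand was lower by edgeR or limma, DESeq2 called 1 and 2 were lower at an unadjusted p under 0.05.

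Integrins and matrix genes were mixed. Over all genes tested, 10.7% rose and 9.85% fell. Of 13 integrins tested, 6 rose, namely ITGA1 (0.87, adjusted p = 0.0110), ITGA2 (0.92, adjusted p = 2.63e-04), ITGA6 (0.48, adjusted p = 0.00806), ITGA10 (1.56, adjusted p = 0.00381), ITGB4 (1.00, adjusted p = 0.00259) and ITGB8 (2.35, adjusted p = 7.21e-05). The fibronectin receptor chain ITGA5 fell (393, 362 and 462 CPM with siNT and 224, 226 and 233 CPM with shNT, -0.83, adjusted p = 0.0125). The call was lost for ITGA1 without siNT replicate 2 (adjusted p = 0.0634). The matrix protein FN1, to which it binds, rose from 135, 136 and 273 to 759, 516 and 609 CPM (log2 fold change 1.79, SE 0.35, adjusted p = 0.00249), with every shNT value above siNT replicate 3 too, and by 2.21 without that sample (adjusted p = 0.000826). Among 27 matrix genes, 7 were higher and 2 lower (4 with DESeq2 and 7 with no filter on low counts), with COL12A1 (1.22, adjusted p = 5.29e-05) and THBS1 (0.93, adjusted p = 7.76e-04) next to FN1 and the laminin chain LAMB3 (-1.11, adjusted p = 6.02e-05) on the other side. The fibrillar collagens COL1A1 and COL1A2 did not pass (log2 fold changes -1.84 and -4.81). In siNT replicate 3, the sample with the HS578T-typical genes, COL1A2 stood at 31.5 CPM against 0.385 and 7.40 in the other siNT samples. The part of the HS578T-typical genes in this was not tested.

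The genes with the lowest p-values were tight within groups, and their levels over all 6 groups of MDA-MB-231 differed. PTPN1, a tyrosine phosphatase of insulin and cytokine receptors, had 95.4, 96.0 and 113 CPM with siNT and 284, 295 and 266 CPM with shNT (log2 fold change 1.47, SE 0.11, adjusted p = 1.52e-07). It held 161, 169 and 160.1 CPM with siNRP1#3 and 161, 185 and 191 CPM with siNRP1#5, so that siNT lay below every other group. PTPMT1, a mitochondrial phosphatase of cardiolipin synthesis, had 16.8, 19.3 and 23.4 CPM with siNT and 58.6, 59.0 and 55.4 CPM with shNT (log2 fold change 1.54, SE 0.12, adjusted p = 2.27e-07), while siNRP1#3 and siNRP1#5 held 72.6 ± 4.93 and 93.5 ± 8.99 CPM (SD, n = 3). Under the other guides this gene was lower with shRNA, with a log2 fold change of -0.38 for #5 (adjusted p = 0.0114) and -0.30 for #3 (adjusted p = 0.0417). MET and TAGLN showed the same order, with siNT the lowest of the 6 groups and siNRP1#5 the highest (MET 152, 101 and 89.2 CPM, TAGLN 303, 471 and 395 CPM). IGFBPL1, an insulin-like growth factor binding protein family member, had 11.5, 10.5 and 14.7 CPM with siNT and 49.7, 42.7 and 44.9 CPM with shNT (log2 fold change 1.91, SE 0.14, adjusted p = 1.52e-07) and held 44.0 CPM with siNRP1#3. Genes were chosen for a low siNT value here, so a lowest place for siNT is partly fixed by the choice.

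Among genes lower in shNT, EVI5L, which encodes a Rab GTPase-activating protein, was low in shNT and no other group, with 72.1, 69.7 and 65.6 CPM with siNT and 22.3, 23.3 and 22.3 CPM with shNT (log2 fold change -1.61, SE 0.15, adjusted p = 1.71e-06) and 49.8 CPM with shNRP1#5. TRABD2A, a Wnt-inhibiting metalloprotease, showed the opposite arrangement, high in siNT (23.6, 23.3 and 23.2 CPM) and 9.12 to 14.7 CPM on average in the other groups (log2 fold change -1.36, SE 0.13, adjusted p = 1.63e-06). BST2, the tetherin that holds budding viruses at the cell surface, had 49.5, 54.3 and 60.3 CPM with siNT and 12.5, 11.8 and 12.0 CPM with shNT (log2 fold change -2.18, SE 0.21, adjusted p = 2.64e-06). Its level was low in every shRNA group, down to 2.33, 1.44 and 0.882 CPM with shNRP1#5, against 36.8, 37.9 and 46.3 CPM with siNRP1#5. HIP1R, an endocytosis adaptor, was the fifth by p (128, 118 and 111 to 52.7, 53.4 and 52.7 CPM, -1.17, adjusted p = 2.81e-06).

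**Figure D4:**
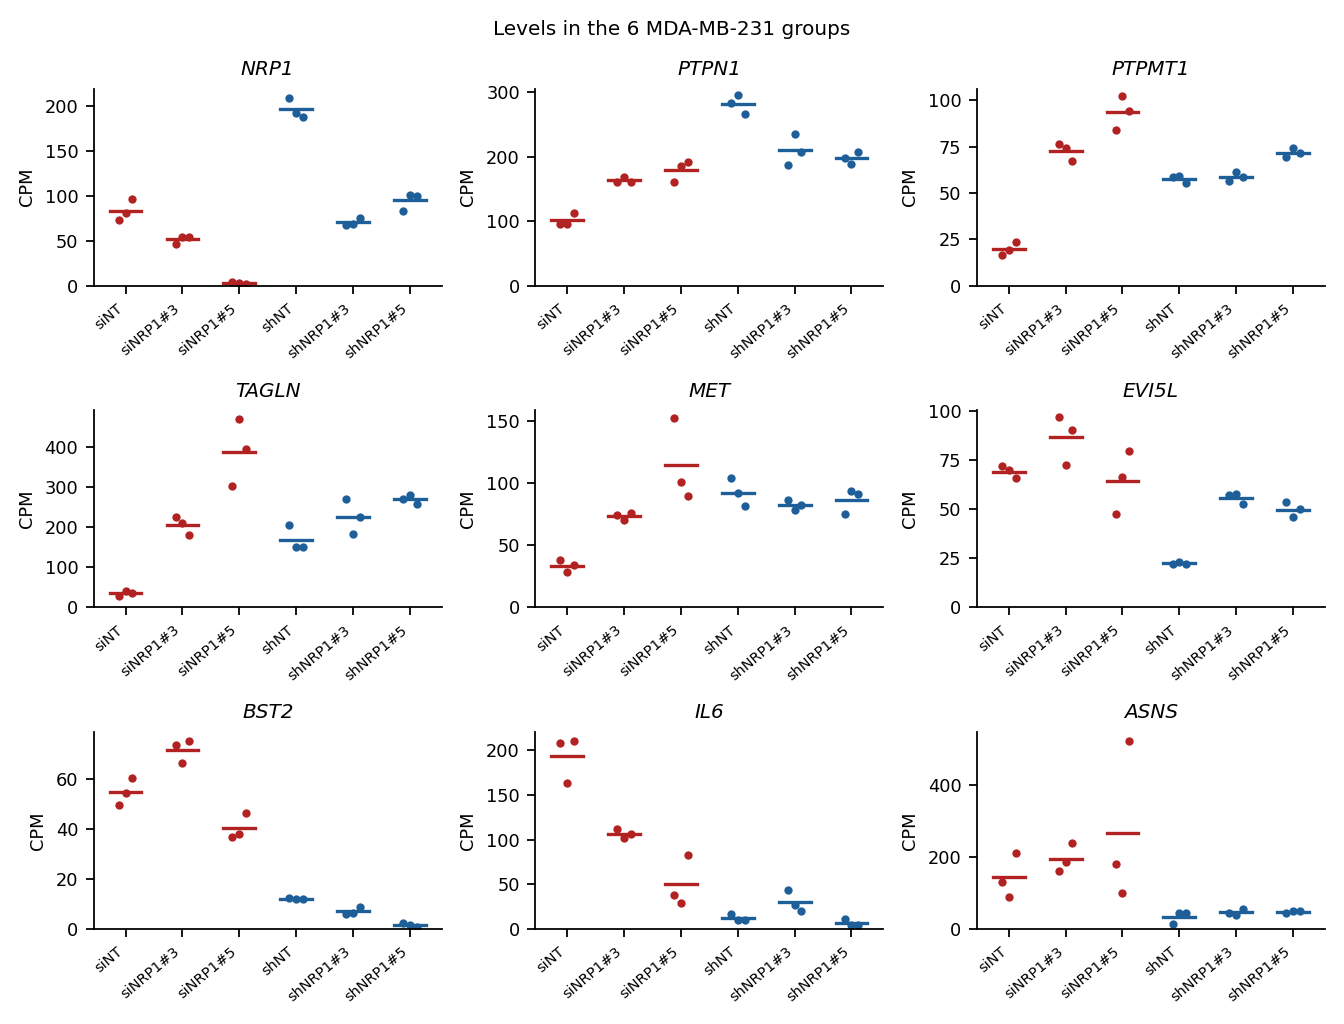
Each panel is a gene, with the CPM of each sample on the y axis as points and the group mean as a bar. The x axis holds the siRNA groups at the left and the shRNA groups at the right, each with its NT control first. PTPMT1, TAGLN and MET are lowest in siNT, EVI5L is lowest in shNT, BST2 is below every siRNA sample in every shRNA sample, and IL6 is highest in siNT, with siNRP1#5 reaching down into the range of shNRP1#3.

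The lists of pathways that foreign nucleic acid and lipid can engage differed in how many members passed the test, against 20.6% of all genes. Of 33 tested interferon-stimulated genes, 4 rose (IFIT1 0.61, adjusted p = 0.0440, with overlapping groups, IFIT2 0.75, adjusted p = 0.0101, MX2 0.60, adjusted p = 0.0432 and PARP9 0.80, adjusted p = 0.00227) and 2 fell (BST2 and IFI27, -0.75, adjusted p = 0.0159), where 10.7% of all genes rose and 9.85% fell. ISG15 and IFI6 did not pass (-0.36 and -0.41). Of 18 sensor and adaptor genes 4 were higher (2 without shNT replicate 3, siNT replicate 2 or siNT replicate 3) and 1 lower. Among them RIGI (0.67, adjusted p = 0.0442), MAVS (0.34, adjusted p = 0.0375) and ADAR (0.39, adjusted p = 0.00587) rose and IKBKE fell (-0.88, adjusted p = 0.00674), and IFIH1 did not pass (0.28). The interferon signalling genes were split, with STAT2 (0.44, adjusted p = 0.0373) and IRF7 (0.66, adjusted p = 0.0204) higher and IRF3 (-0.61, adjusted p = 0.00191), IFNAR2 (-0.53, adjusted p = 0.00536) and SOCS1 (-0.87, adjusted p = 0.0142) lower of 11 tested. The genes of interferon beta and lambda were too low to test. With 1 sample left out, many of these calls near the threshold were lost, with the sign kept. They were lost for IFIT1 without shNT replicate 1 or 3 or siNT replicate 1 or 3 (adjusted p from 0.0987 to 0.263), IFIT2 without shNT replicate 1 or siNT replicate 3 (adjusted p from 0.0531 to 0.0590), MX2 without shNT replicate 1 or 3 or siNT replicate 1 or 2 (adjusted p from 0.0887 to 0.168) and IFI27 without shNT replicate 2 or siNT replicate 3 (adjusted p from 0.0558 to 0.0972), and the interferon-stimulated list had 1 member higher without shNT replicate 1 and 2 without shNT replicate 3 or without siNT replicate 3. Among sensors and signalling genes they were lost for RIGI without shNT replicate 1 or 3 or siNT replicate 2 or 3 (adjusted p from 0.115 to 0.159), MAVS without shNT replicate 2 or 3 or siNT replicate 2 or 3 (adjusted p from 0.0802 to 0.151), STAT2 without shNT replicate 1 or 2 or 3 or siNT replicate 1 or 2 (adjusted p from 0.0663 to 0.146), IRF7 without shNT replicate 1 or 3 or siNT replicate 1 (adjusted p from 0.0674 to 0.0895) and SOCS1 without shNT replicate 2 or 3 or siNT replicate 3 (adjusted p from 0.0562 to 0.0668). Among 13 genes of the RNA interference machinery TNRC6C rose (0.59, adjusted p = 0.0142) and PRKRA, a Dicer partner, fell (-0.31, adjusted p = 0.0456), and the Argonautes AGO1 (0.23) and AGO2 (0.25) did not pass. Here the calls were lost for TNRC6C without shNT replicate 2 or siNT replicate 3 (adjusted p from 0.0691 to 0.0724) and PRKRA without any of the 6 samples (adjusted p from 0.0825 to 0.115). Cholesterol synthesis, which responds to sterol supply, had 1 of 24 lower, DHCR7 (-0.75, adjusted p = 0.0294, overlapping), with HMGCS1 (-0.35) not passing, but 10 were lower with no filter on low counts and 3 without siNT replicate 3. The call was lost for DHCR7 without shNT replicate 1 or 3 or siNT replicate 1 or 2 (adjusted p from 0.0820 to 0.131).

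The proliferation lists were near the background on the TMM scale, where 10.7% of all genes tested were higher and 9.85% lower. Of 23 G1/S and replication genes, 3 rose (MCM6 0.57, adjusted p = 0.00780, MCM4 0.47, adjusted p = 0.0428 and TYMS 0.37, adjusted p = 0.0421) and 1 fell (MCM7 -0.39, adjusted p = 0.0178), but 9 rose with library size alone and with limma on log2(TPM + 0.5), and 1 rose with any 1 sample left out except siNT replicate 2. Of 24 G2/M genes, 2 rose (TOP2A 0.62, adjusted p = 0.0494, overlapping, and KIF20A 0.56, adjusted p = 0.00536) and 1 fell (AURKB -0.46, adjusted p = 0.00249). The E cyclins, CCNB1 and CCNB2 did not pass (0.14, 0.26, -0.18 and -0.21). The p53 targets had 6 of 20 lower and 2 higher, led by SESN2, a stress-inducible regulator of mTORC1 (50.0, 46.9 and 30.1 CPM with siNT and 11.7, 15.2 and 13.5 CPM with shNT, -1.65, adjusted p = 5.24e-05), then FAS (-1.04, adjusted p = 0.00123) and AEN (-0.87, adjusted p = 0.00905), with MDM2 lower too (-0.74, adjusted p = 0.00813). SESN1 (0.69, adjusted p = 0.00499) and TP53INP1 (0.85, adjusted p = 0.0104) rose, and CDKN1A did not pass (-0.44, adjusted p = 0.0555). The p53 targets lower in shNT were 10 with only the 2 groups fitted, 3 without shNT replicate 3 and 2 with limma. Ribosomal protein genes were lower more often than the background, 10 of 22 (median -0.40) and 0 higher, with RPL10 (-0.81, adjusted p = 2.94e-04), RPLP0 (-0.79, adjusted p = 4.96e-04), RPLP1 (-0.69, adjusted p = 0.00112) and RPL3 (-0.54, adjusted p = 0.00112) lower and RPL5 not passing (-0.40, adjusted p = 0.0686). In other fits, 16 were lower with only the 2 groups fitted, 5 without shNT replicate 3 and 6 without siNT replicate 2. Of the 13 mitochondrially encoded genes 0 passed in edgeR, DESeq2 or limma and 0 had an unadjusted p under 0.05, while 2 were higher in shNT with no filter on low counts. Calls named here were lost for MCM4 without shNT replicate 1 or 2 or 3 or siNT replicate 1 or 3 (adjusted p from 0.0655 to 0.180), TYMS without shNT replicate 1 or 2 or 3 or siNT replicate 1 or 3 (adjusted p from 0.0642 to 0.179), MCM7 without shNT replicate 2 or 3 or siNT replicate 1 or 2 (adjusted p from 0.0607 to 0.0995), TOP2A without shNT replicate 1 or 3 or siNT replicate 2 or 3 (adjusted p from 0.154 to 0.165), AEN without shNT replicate 3 (adjusted p = 0.0556) and TP53INP1 without shNT replicate 3 or siNT replicate 2 (adjusted p from 0.0541 to 0.0597).

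The same change of route was measured with the NRP1-targeting guides, in samples that the NT comparison does not share, although the estimate of spread is common to all and NRP1 was knocked down by unequal degrees. The siRNA and shRNA numbered #5 have the same sequence. Those numbered #3 differ in sequence and in the transcript variants they target, so that sequence and route changed together for #3. With guide #5, 8531 genes (45.4%) passed, and with guide #3, 7956 (42.3%). Of the 2013 genes higher in shNT than in siNT, 46.3% were called higher with shRNA for guide #5 and 11.9% lower, against 22.6% and 22.7% of all genes. For guide #3 the shares were 58.7% and 4.37%, against 22.4% and 19.9%. Of the 1852 genes higher in siNT, 53.5% were called lower with shRNA for guide #5 and 58.9% for guide #3. In turn, the shared genes made up 21.9% and 28.0% of all genes higher with shRNA for #5 and #3, and 23.2% and 29.1% of all genes lower. A test of the difference between the NT change and the guide #5 change passed for 4450 genes (23.7%), 2302 (12.2%) of them with the larger value under NT. The lowest p was that of NRP1 itself (difference -3.83). The next 4 were NEDD9, a focal adhesion scaffold (-0.69 with NT and -4.90 with #5), the protease inhibitor TIMP3 (0.84 and -1.85), NEBL, an actin-binding protein (1.47 and -2.94) and the helicase subunit MCM7 (-0.39 and 1.65). The NT calls were lost for NEDD9 without shNT replicate 3 or siNT replicate 2 or 3 (adjusted p from 0.0553 to 0.0803) and MCM7 without shNT replicate 2 or 3 or siNT replicate 1 or 2 (adjusted p from 0.0607 to 0.0995).

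The NF-kB list was mostly lower with shRNA for every guide. The median was -1.38 with NT, -1.27 with #5 (21 of 25 lower, 0 higher) and -1.81 with #3 (20 lower, 2 higher). For IL6 the log2 fold change was -2.95 with #5 (adjusted p = 1.07e-04) and -1.84 with #3 (adjusted p = 0.00302), and IL6 had 112, 102 and 107 CPM with siNRP1#3 and 43.3, 26.3 and 20.2 CPM with shNRP1#3. The ATF4 list had medians of -0.75, -0.93 (13 lower, 1 higher) and -0.97 (13 lower, 0 higher). For ASNS, all 3 shRNA groups were low (means 33.8, 46.0 and 48.4 CPM). The siRNA groups were high and uneven, with siNRP1#5 at 179.7, 98.9 and 523 CPM. The ribosomal list had medians of -0.40, -0.42 and -0.38. The medians of several other lists changed sign between guides. Among them were the semaphorin and VEGF ligands (0.55 with NT, -1.05 with #5 and 0.63 with #3) and the NRP1 co-receptors (0.33, -0.24 and 0.45), which held NRP1, the target of those guides. The NRF2 targets had medians of -0.50, 0.0095 and -0.17, so that the fall with NT was not seen with #5, and the interferon-stimulated genes had 0.11, -0.44 and 0.53.

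**Figure D5:**
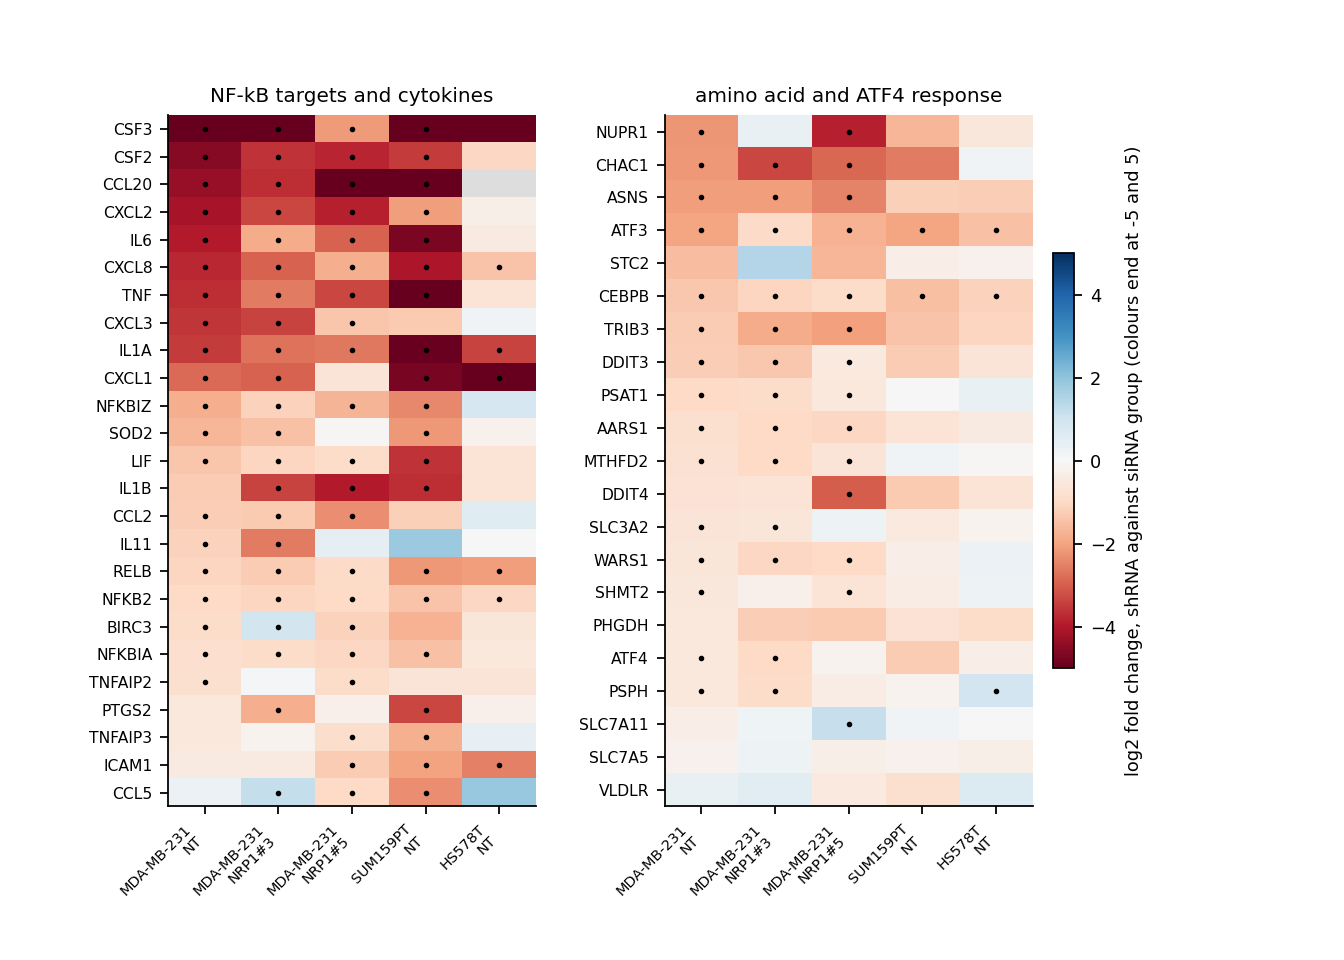
Each row is a gene of the NF-kB list (left) or the ATF4 list (right) and each column a comparison of shRNA against siRNA, the colour showing the log2 fold change (red lower in shRNA, blue higher, with colours ending at -5 and 5), a dot an adjusted p under 0.05, and grey a gene not tested there. The NF-kB columns are mostly red in MDA-MB-231 and SUM159PT and paler in HS578T. In the ATF4 list few genes carry a dot in SUM159PT or HS578T.

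The NT comparison was repeated in SUM159PT and HS578T, other triple negative breast cancer lines, with 3 samples a group. In SUM159PT 2890 of 20067 genes (14.4%) passed, with 1195 (5.96%) higher in shNT, and in HS578T 3527 of 19661 (17.9%), with 1797 (9.14%) higher. Genes lower in MDA-MB-231 shNT by at least 2-fold were called lower for 29.1% of the 392 tested in SUM159PT and for 22.6% of the 367 tested in HS578T, where 8.45% and 8.8% of all genes tested were lower. Genes higher by at least 2-fold in MDA-MB-231 were called higher for 8.21% of 560 in SUM159PT and 16.0% of 562 in HS578T. Of all genes tested, 5.96% and 9.14% were higher there. Of the same 560 and 562 genes, 5.89% and 4.80% were called lower, so the rises lay near the background in SUM159PT. The shared genes were 6.73% and 4.8% of the lower calls of SUM159PT and HS578T, and 3.85% and 5.01% of their higher calls.

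IL6 fell in SUM159PT from a mean of 722 to 28.4 CPM, but its siNT values ran from 192 to 1483 (log2 fold change -4.70, adjusted p = 0.00453, edgeR). In HS578T its level was low to begin with, 6.33 and 4.54 CPM, and did not pass (-0.45, adjusted p = 0.495). CXCL8 fell in all 3 lines, with -4.06 in SUM159PT (adjusted p = 0.0145) and -1.44 in HS578T (adjusted p = 0.0432). The NF-kB list as a whole had a median of -2.32 in SUM159PT (20 lower of 25) and of -0.61 in HS578T (6 lower of 24). MET rose in each line, by 1.73 (adjusted p = 0.00651) in SUM159PT and 2.63 (adjusted p = 4.48e-04) in HS578T, as did PTPMT1 (1.64, adjusted p = 0.00145, and 0.99, adjusted p = 0.00855). EVI5L fell in each (-1.87 and -1.31, adjusted p = 0.00237 and 0.0194).

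The test of the difference in the change between lines passed for 1505 of 23416 genes (6.43%) against SUM159PT, with 3.34% of genes changing more towards shNT in MDA-MB-231 and 3.09% less. With the replicate number as a block it passed for 2413. Against HS578T it passed for 2023 (8.64%), with 4.29% more and 4.35% less towards shNT. The lowest p against SUM159PT belonged to matrix genes and others. They were COL8A1, a basement membrane collagen (1.82 here, -1.53 there), the synaptic receptor NPTXR (0.52, -1.81), MAGEA11, a cancer-testis antigen (-3.87, -0.02), NTNG2, a netrin-like guidance molecule (0.88, -4.07) and FN1 (1.79, -1.80). MAGEA11 had 1.10, 1.77 and 1.78 CPM with siNT and 0.164, 0.0742 and 0.0758 CPM with shNT, against 2.53 and 2.55 CPM on average in SUM159PT. Against HS578T they were VASH1, an angiogenesis inhibitor (2.31, -2.81), the secreted protein ANGPTL2 (1.07, -4.04), the Notch ligand JAG2 (0.98, -5.37, with at most 0.0382 CPM in HS578T shNT) and the noncoding RNAs GASAL1 (-0.87, 2.71) and FAM27E3 (-1.25, 1.62). Within MDA-MB-231 the calls were lost for NPTXR without shNT replicate 3 or siNT replicate 1 (adjusted p from 0.0820 to 0.0907), NTNG2 without shNT replicate 2 or 3 or siNT replicate 1 or 2 (adjusted p from 0.126 to 0.172) and ANGPTL2 without shNT replicate 2 or 3 or siNT replicate 1 or 2 (adjusted p from 0.0839 to 0.12).

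Few genes were present in 1 group and at 0 in the other. TMEM265, a membrane protein gene, had 10.31, 9.954 and 10.89 CPM with siNT, and TGFB2-OT1, an RNA overlapping TGFB2, had 1.1, 1.434 and 4.651. Both were listed at 0 in all shNT samples. SLC2A3P1, a processed pseudogene of SLC2A3, had 4.33, 6.214 and 5.55 CPM with shNT and 0 with siNT. TMEM265 overlaps SRCAP in the annotation, and by their names the others overlap or resemble another gene, so that the authors' counting could assign their reads elsewhere, and no fold is given.

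By transcript, NRP1-206, the most abundant, made up 47.0%, 45.7% and 52.6% of NRP1 in the siNT and 45.2%, 42.7% and 46.7% in the shNT samples by the authors' isoform percentage. NRP1-204 made up 23.6%, 21% and 27.4% with siNT and 18.8%, 26.4% and 21.9% with shNT. Neither difference passed (exact two-sided permutation test, p = 0.2 and 0.6, the smallest possible being 0.1). In TPM both transcripts were higher in shNT on average, as NRP1-206 went from 14 to 38.1 TPM and NRP1-204 from 6.96 to 18.9. NRP1-209, picked after its values were seen and given without a test, held 7.44%, 17.0% and 4.19% against 24.0%, 20.0% and 20.4%. Its share of NRP1's expected transcript counts was far smaller, with 0.675%, 1.725% and 0.371% for siNT and 2.48%, 2.12% and 2.06% for shNT. The siNT values rest on 17.9, 66.3 and 17.1 expected counts.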

How the data were processed

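RNA from 52 samples of 3 cell lines was sequenced by the authors as poly(A)-selected, stranded, paired-end libraries. Per the submitters' processing notes and the study's methods, reads were trimmed with Trim Galore 0.6.5, checked with FastQC 0.11.9, aligned with STAR 2.7.2b to GRCh38 and quantified with RSEM 1.3.3. The deposited tables give RSEM expected counts per gene and transcript (78894 genes), TPM, and the percent of a gene's TPM carried by each transcript, as the authors' pipeline wrote them. Expected counts were rounded to whole numbers here.

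The 18 MDA-MB-231 samples were grouped by their labels and fitted with 6 group means in edgeR 4.0.16 (R 4.3.3) with filterByExpr, TMM and the quasi-likelihood test, as contrasts with Benjamini-Hochberg adjustment over all genes tested and a threshold of 0.05. Changes between cell lines were tested as a difference of differences over all 52 samples. CPM were computed on TMM-scaled library sizes. The comparison with guide #3 was added after the data were seen. Genes named by size were the 12 largest changes each way among genes past the threshold whose groups did not overlap, with a mean of at least 1 CPM in both groups and 5 CPM in the higher one, and 5 in each direction were named by p. In lists, all members past the threshold were named where 6 or fewer passed, otherwise the 3 largest each way, together with the first 2 members. The 5 lowest p-values of each difference between comparisons and genes under 0.1 CPM throughout 1 group but at 1 CPM or more in the other were named too. A few genes that this rule names are not reported here. Members and lists were chosen with earlier results of these data known. Gene positions came from GENCODE v44 and promoters from RefSeq (GRCh38.p14), by symbol.

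Samples of the same replicate number deviated weakly together, with correlations of 0.172, 0.158 and 0.169 over the 3 numbers. Those of unlike numbers ran from -0.298 to 0.0959. Deviations from a group's own mean constrain each other, so these values are not independent. The number was taken as a possible pairing and fitted as a block among the alternatives. The other alternatives were the fit of only the groups compared, scaling (DESeq2 size factors, upper quartile, library size alone), DESeq2 1.42.0, no filter and a stricter one, limma 3.58.1 on log2(TPM + 0.5), and leaving out each sample. The main edgeR test, of shNT against siNT, was first tried on simulated counts, and the outcome of that trial is not reported here. Depth of 37007132 to 63173667 expected counts and 3 samples a group limit the precision, and groups of 3 were not searched for outlying samples. The guide sequences of the non-targeting controls were not analysed here.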

Additional observations from a re-analysis of the deposited data

Results flagged for a closer look

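The change from siNT to shNT differed between MDA-MB-231 and SUM159PT for 1505 genes and between MDA-MB-231 and HS578T for 2023 genes, by edgeR's test of the difference itself. Values below are the log2 fold change in MDA-MB-231 minus that in the other line, for genes named above.

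Against SUM159PT, the difference was positive for the matrix and matrix-remodelling genes COL8A1 (3.35, adjusted p = 1.62e-06), FN1 (3.59, adjusted p = 9.71e-06) and TIMP3 (2.58, adjusted p = 1.23e-05). Receptors and guidance molecules lay on the same side, with NPTXR at 2.33 (adjusted p = 8.64e-06), NTNG2 at 4.96 (adjusted p = 8.64e-06), FLRT2 at 3.40 (adjusted p = 6.49e-05), VIPR1 at 4.64 (adjusted p = 0.000225), CXCR4 at 4.39 (adjusted p = 0.00261) and KDR at 4.68 (adjusted p = 0.0106). VASH1 (2.90, adjusted p = 0.0002), the cytoskeletal linker PPL (2.93, adjusted p = 0.00388) and ANGPTL2 (2.94, adjusted p = 0.0156) also changed more towards shNT in MDA-MB-231. ANGPTL2 was low in both NT groups of SUM159PT, with at most 0.436 CPM. CXCR4 and KDR were near 0 in every SUM159PT sample, with at most 0.161 and 0.198 CPM, and too low to be tested within that line, so that their differences are set against a few counts and are no measure of size. The difference was negative for MAGEA11 (-3.85, adjusted p = 8.64e-06), TRABD2A (-1.41, adjusted p = 0.000352), GASAL1 (-2.03, adjusted p = 0.00514), EREG (-3.03, adjusted p = 0.0087) and FAM27E3 (-1.37, adjusted p = 0.0234).

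Against HS578T, genes acting on vessels and Notch signalling were among those with the lowest p, with VASH1 at 5.16 (adjusted p = 1.73e-08), ANGPTL2 at 5.16 (adjusted p = 8.25e-07) and JAG2 at 6.43 (adjusted p = 2.31e-06). FN1 (2.33, adjusted p = 0.00118), COL8A1 (1.68, adjusted p = 0.00372), NTNG2 (4.08, adjusted p = 3.02e-05), NPTXR (1.32, adjusted p = 0.00325), VIPR1 (4.37, adjusted p = 0.00647), FLRT2 (1.84, adjusted p = 0.0181), PPL (2.48, adjusted p = 0.0237) and CXCR4 (3.45, adjusted p = 0.049) had the sign that they had against SUM159PT. Further positive values were those of COLEC12 (3.15, adjusted p = 0.00206), PTPN1 (1.22, adjusted p = 0.00397), the calcium channel subunit CACNG4 (7.07, adjusted p = 0.00861) and IGFBPL1 (2.09, adjusted p = 0.0206). In HS578T, CACNG4 was listed at 0 in all shNT samples and reached 0.126 CPM with siNT. CXCR4 reached 0.126 CPM, and JAG2 0.0382 CPM with shNT and VIPR1 0.210. These differences too are set against few or no counts, and their size depends on the prior count of the fit. The cytokines IL6 (-3.46, adjusted p = 0.00913) and CXCL2 (-3.75, adjusted p = 0.0137) had a more negative change in MDA-MB-231, and so had BST2 (-1.33, adjusted p = 0.0154). CXCL2 and PPL were low in both NT groups of HS578T, with at most 0.914 and 0.946 CPM. Negative too were GASAL1 (-3.53, adjusted p = 1.27e-05), FAM27E3 (-2.81, adjusted p = 1.27e-05), MAGEA11 (-3.46, adjusted p = 2.64e-05) and TRABD2A (-0.89, adjusted p = 0.016).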

How the results depend on the processing

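The 3 samples a group and consecutive passages limit these tests, and guide, delivery, selection and harvest time differed together. The 46 genes were named by size, by p, by a difference between comparisons or as NRP1. They gave 690 values over 15 alternatives for the MDA-MB-231 NT change. Of these, 665 kept their direction and their side of the threshold, 25 lost the call and 0 reversed. The lost calls fell on 6 genes, LCN2 and ANGPTL2, MCM7, NEDD9, NPTXR and NTNG2, and all but LCN2 had been named by a difference. Most of the 46 were picked in these same data for large changes or low p, which favours a stable call. Of 647 list members, called or not, 60 lost a call and 0 gained one without shNT replicate 3. Without siNT replicate 3, 27 lost a call and 20 gained one. The losses lay between these with any other sample left out. The number of genes past the threshold (3865) ranged from 2543 to 3539 with 1 sample left out and from 3591 to 4446 otherwise. The genes changed at least 2-fold (1182) fell in number to 704 under the stricter filter and 611 with limma on log2(TPM + 0.5), and were 991 to 1269 with 1 sample left out. The percent of calls higher in shNT (52.1) moved to 62.9 with library size alone and 77.1 with limma, and the median of all genes (-0.0053) to 0.135 with limma. With the replicate number as a block, the difference from SUM159PT passed for 2413 genes in place of 1505. Under the block there were 4131 calls for NT, 8736 for guide #5, 8132 for guide #3, 4707 for their difference and 2874 for the difference from HS578T, each within 1.5 times the value without it. The NRP1-206 difference in isoform percentage (-3.57 points) was 1.46 from expected counts and -4.94 to -1.49 with 1 sample left out, and that of NRP1-204 (-1.67) was 0.389 from expected counts and -3.69 to 0.112 with 1 sample left out, 0.0333 without siNT replicate 3 and 0.112 without shNT replicate 1. The cause of these moves was not tested.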

Other observations

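Some lists not described above had members past edgeR's test in both directions, where 10.7% of all genes tested were higher and 9.85% lower. Of 20 Notch and Wnt genes tested, 7 were higher in shNT and 1 lower. NKD1, a feedback inhibitor of Wnt signalling, had 0, 0.0211 and 0 CPM with siNT and 0.146, 0.148 and 0.0910 CPM with shNT, with no overlap but too few counts with siNT for a fold to be given. The secreted Wnt inhibitor DKK1 (91.7, 90.2 and 108 to 268, 289.7 and 228 CPM, 1.44, adjusted p = 9.72e-07), the scaffold AXIN2 (1.09, adjusted p = 5.12e-04), JAG2 (0.98, adjusted p = 0.00482), JAG1 (0.87, adjusted p = 2.14e-04), TCF7 (0.79, adjusted p = 0.00301) and FZD2 (0.45, adjusted p = 0.0414) rose as well, and the Notch feedback gene NRARP fell (-1.05, adjusted p = 9.19e-04). The call was lost for FZD2 without shNT replicate 1 or 2 or 3 or siNT replicate 1 or 3 (adjusted p from 0.0581 to 0.176). The receptors NOTCH1 (0.26) and NOTCH2 (0.36) did not pass. YAP and TEAD targets had 9 of 23 higher and 5 lower, with PTPN14 (1.29, adjusted p = 6.00e-06), TEAD1 (0.93, adjusted p = 0.00242) and ANKRD1 (0.84, adjusted p = 0.00780) on the one side and NUAK2 (-1.17, adjusted p = 2.81e-04), GADD45A (-0.88, adjusted p = 0.00171) and CCN1 (-0.82, adjusted p = 0.00265) on the other. CCN2 did not pass (0.19).

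Among genes of TGF-beta signalling, 5 of 18 rose, led by TGFB2 (0.82, adjusted p = 7.18e-04) and BAMBI (0.82, adjusted p = 0.00112), with TGFB1 not passing (0.00). The urokinase receptor PLAUR fell (-1.04, adjusted p = 1.14e-04), while MMP1 (75.4, 52.3 and 56.2 CPM with siNT and 133, 181 and 134 CPM with shNT, 1.29, adjusted p = 1.85e-04), the plasminogen activator PLAT (0.92, adjusted p = 0.0250) and the inhibitor TIMP3 (0.84, adjusted p = 3.25e-04) rose. The metalloproteinase and plasminogen list had 5 of 18 higher, but 2 without shNT replicate 3, siNT replicate 1 or siNT replicate 2. MAPK feedback genes were split within a family, as the phosphatase DUSP5 fell (342, 304 and 237 CPM with siNT and 60.5, 115 and 83.7 CPM with shNT, -1.77, adjusted p = 3.05e-05) and DUSP6 (77.1, 66.3 and 87.3 CPM with siNT and 123, 147 and 141 CPM with shNT, 0.84, adjusted p = 0.00165) and SPRY1 (0.94, adjusted p = 0.0156) rose. Calls were lost for PLAT without shNT replicate 2 or 3 or siNT replicate 1 or 2 (adjusted p from 0.0523 to 0.102) and SPRY1 without shNT replicate 3 or siNT replicate 1 or 2 (adjusted p from 0.0564 to 0.0783). CCND2, a D-type cyclin, had 0.935, 0.801 and 1.20 CPM with siNT and 0.128, 0.148 and 0.136 CPM with shNT (log2 fold change -2.81, SE 0.43, adjusted p = 1.55e-04), while CCND1 did not pass (-0.15). CDH11, a mesenchymal cadherin, had 0.632, 0.886 and 1.25 CPM with siNT and 4.62, 3.25 and 3.76 CPM with shNT (log2 fold change 2.06, SE 0.32, adjusted p = 1.79e-04).

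Several metabolic and proteostasis lists had more members lower than higher on the TMM scale, while the lysosome list had more higher. Over all genes tested, 10.7% were higher in shNT and 9.85% lower, so that small counts lie near these shares. Of 22 nuclear-encoded respiratory chain genes 6 were lower and 0 higher, led by cytochrome c (CYCS, -0.97, adjusted p = 0.00867), but limma on log2(TPM + 0.5) called 1 lower and 1 higher, and 2 were lower without shNT replicate 2 or without siNT replicate 2. Of 14 genes of antigen presentation TAPBP (-0.57, adjusted p = 0.00661), PSMB9 (-0.56, adjusted p = 0.0140) and TAP1 (-0.53, adjusted p = 0.0258) were lower, and 0 were so with limma. With 1 sample left out, calls were lost for CYCS without siNT replicate 1 (adjusted p = 0.0525), PSMB9 without shNT replicate 1 or 2 or siNT replicate 2 (adjusted p from 0.0540 to 0.0822) and TAP1 without shNT replicate 2 or 3 or siNT replicate 1 or 2 (adjusted p from 0.0636 to 0.0895). Lysosome genes had 5 of 24 higher and 2 lower, with GPNMB at 0.72, adjusted p = 0.0340, and 1 higher without siNT replicate 1. The call was lost for GPNMB without shNT replicate 1 or siNT replicate 1 or 2 (adjusted p from 0.0665 to 0.196). Of 27 hypoxia and glycolysis genes GPI fell (-0.45, adjusted p = 0.00676) and 0 rose, against 7 higher with limma, 1 with DESeq2, 3 without siNT replicate 3 and 4 at an unadjusted p under 0.05. Heat shock chaperones had 2 of 12 lower, HSPB1 (-0.75, adjusted p = 0.00309) and HSPA1B (-0.52, adjusted p = 0.0477), the latter a near copy of HSPA1A. The call was lost for HSPA1B without shNT replicate 1 or 2 or 3 or siNT replicate 1 or 2 (adjusted p from 0.0811 to 0.240). The metallothionein and metal response list had 3 of 6 lower, among them MT2A (-0.69, adjusted p = 0.0255) and the zinc transporter SLC30A1. It had 0 lower without shNT replicate 1 or without shNT replicate 2. The metallothioneins in it are near copies of each other. Here the call was lost for MT2A without shNT replicate 1 or 2 or siNT replicate 3 (adjusted p from 0.0610 to 0.129).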
